A study of Mus musculus with 14 samples.

Results

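Quiescent and proliferating neural stem and progenitor cells (NSPCs) of the adult mouse were compared by poly-A RNA sequencing, over all measured genes and, where the deposited transcript counts allowed it, over single transcripts. Of the 14 libraries of the series, 8 belonged to this comparison, and they were chosen by their labels. The quiescent group was 4 libraries (replicates 1, 2, 3 and 4) of NSPCs from C57BL/6 wild-type mice given BMP4, and the proliferating group was 4 libraries (replicates 1, 2, 4 and 5) of NSPCs of the same strain and genotype given FGF and EGF. The labels call the cells adult and name neither the brain region, the exact age and number of the animals, the duration of the treatments, nor whether BMP4 was given on top of a growth factor. Nor do they call the replicates separate animals or cultures. The p-values thus reflect how far these libraries spread, and that spread may be technical only. The other libraries of the series, from cells given a virus, were used only for a check of GC content.

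Neural stem cells of the adult brain are mostly quiescent, a reversible resting state outside the cell cycle, and they enter the cycle to produce neurons and glia. In culture, FGF and EGF act through receptor tyrosine kinases and keep progenitors dividing. BMP4, a ligand of the TGF-beta superfamily, binds serine/threonine kinase receptors whose SMAD proteins turn on the Id genes, and it is widely used to bring such cultures into quiescence. The comparison therefore sets 1 state against another together with the ligands that hold them, and the effect of the state and that of the ligand cannot be told apart.

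The quiescent libraries held 6475099 to 8797750 estimated counts and the proliferating libraries 8331999 to 8992709, with 15938 to 16763 genes detected per library. The first principal component took 79% of the variance and separated the groups, and the next took 7.99% and was led by quiescent replicate 2. Genes poor in GC varied most between libraries. In the GC class with the lowest content (31 to 42.1%), quiescent replicate 2 lay 0.55 above the middle of the 8 libraries on the log2 scale, and the median log2 fold change was 0.31, against -0.18 in the class with the highest (58.2 to 72.8%), of 10 classes. In that lowest class the median log2 difference of the proliferating libraries from the GFP control libraries of the series was -2.67, across tables quantified separately. Levels of different genes, given here in TPM (transcript abundance scaled by transcript length and to a common total), carry this dependence. Fold changes and the list medians below carry it too, since only an alternative fit removed the GC trend.

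Progenitor genes were expressed in all 8 libraries. The TPM of Sox2, a transcription factor of neural stem cells, ran from 74.7 to 100 in quiescent and from 87.4 to 98.5 in proliferating libraries. Fabp7, a radial glial fatty acid binding protein, stood at 2810 to 3790 and 1860 to 2170 TPM. Of 11 progenitor markers tested, 2 were higher in quiescent libraries, Fabp7 and Slc1a3, and 6 were lower (median log2 fold change -0.18). Nes, with the largest fall among them, stood at 37.7 to 63 TPM in quiescent and 94.3 to 125 TPM in proliferating libraries. Olig1, an oligodendrocyte lineage factor, stood at 1960 to 2530 TPM in all 8 libraries, while the myelin gene Mog was at 0. The neuronal genes Slc17a6 and Stmn2, the microglial genes Cx3cr1, Itgam, C1qa, C1qb and Ptprc, the endothelial gene Cldn5, the mural and fibroblast genes Pdgfrb, Abcc9 and Dcn and the ependymal gene Tmem212 were at 0 in every library. Other markers in these lists had counts. The ependymal genes Foxj1 (32.6 to 45.4 TPM over the 8 libraries) and Rarres2 (9.78 to 35.8), the mural gene Acta2 (1.33 to 10.1) and the neuronal gene Gad1 (0.292 to 4.84) were lower in quiescent libraries, and the endothelial gene Kdr (0.526 to 3.87) was higher. Of 8 astrocyte markers tested, 5 were higher in quiescent libraries and 2 lower, and their summed level was 0.137% and 0.14% of TPM. The filament gene Gfap stood at 199 to 221 TPM in quiescent and 26.2 to 37.1 TPM in proliferating libraries, whereas Aldh1l1 stood at 541 to 625 and 889 to 923 TPM. Among neuroblast markers tested, 3 were lower in quiescent libraries and 1, Dlx2, was higher. The 1 microglial marker tested, Tmem119, stood at 2.16 to 4.32 TPM in quiescent and 0 to 0.345 TPM in proliferating libraries. The part of these markers in the results was not tested. In bulk libraries, fewer cells of a type and less RNA per cell cannot be told apart.

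A gene was called where the adjusted p of edgeR's quasi-likelihood test, Benjamini-Hochberg over 12245 tested genes, was under 0.05. Called higher in quiescent libraries were 29.9% of the tested genes and called lower 35.5%, and at least 2-fold 10.1% and 10.6%. The median log2 fold change of all tested genes was -0.01, and every gene list below is to be read against these shares and this median. The groups did not overlap in 7306 of the 12245 tested genes and in 7168 of the 8010 called ones. Lack of overlap, where given below, is thus usual for a called gene. With library size as the only scaling the median was -0.15 and the calls split into 2823 higher and 5219 lower, against 3664 and 4346 with TMM scaling. In the authors' deposited table there were 3591 genes higher in quiescent cells against 3627 lower ones, and 6656 of the 8010 genes called here were called in the same direction there.

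The leading genes held a larger share of the pool in quiescent libraries. The 10 leading genes held 11.4 to 12.5% of TPM in quiescent and 6.8 to 7.26% in proliferating libraries, without overlap. These shares count Rn18s, an 18S ribosomal RNA and the second in both groups, and without it they were 9.98 to 10.7% and 6.16 to 6.36%. Of the 100 leading genes of each group, 73 were shared. Ckb, a creatine kinase that buffers ATP, led both groups, with 29700, 26600, 28600 and 28500 TPM in quiescent and 16900, 15700, 16900 and 15900 TPM in proliferating libraries. Ncan (neurocan), a chondroitin sulfate proteoglycan of the brain matrix, gained the most, from 711, 691, 712 and 661 TPM to 17000, 16500, 18100 and 16900 TPM. It was the third of the quiescent genes by TPM (log2 fold change 4.61, SE 0.05, adjusted p = 1.77e-18).

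Further genes with large gains in TPM had different functions. The insulin-like growth factor binding protein gene Igfbp2 went from 6100 ± 148 to 9630 ± 431 TPM, and the protease inhibitor gene Cst3 from 3920 ± 143 to 7770 ± 270 TPM (SD, n = 4 and 4). Pea15a, a cytosolic partner of ERK, went from 2820 ± 42.6 to 7040 ± 244 TPM, and the ferritin genes Ftl1 and Fth1 from 4700 and 4310 TPM to 7880 and 6810 TPM. Mtch1, a mitochondrial outer membrane protein, went from 467 ± 25.8 to 2350 ± 110 TPM. All of these rose in edgeR's test, and none of their groups overlapped. Rn18s, the 18S ribosomal RNA that poly-A selection does not fully remove, stood at 13000, 11500, 13100 and 16200 TPM in proliferating and 26300, 21700, 19300 and 19700 TPM in quiescent libraries, and its part in the TPM of other genes was not tested.

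Actin and ribosomal protein genes were among the largest losses in TPM. The cytoplasmic actins Actg1 and Actb went from 4780 ± 90.8 and 4330 ± 91.2 TPM to 2320 ± 24.2 and 2240 ± 74.6 TPM. Of 82 cytosolic ribosomal protein genes tested, all 82 were lower and 0 higher (median log2 fold change -0.59), and together they held 14.4 to 15.1% of TPM in proliferating and 9.84 to 10.2% in quiescent libraries, without overlap. Cdk4, the cyclin D-dependent kinase, was the fifth largest loss, from 1940, 2010, 1900 and 1880 TPM to 601, 646, 669 and 635 TPM. Actin, tubulin, ferritin and ribosomal protein genes have near-identical copies in the genome, so the split of their reads is uncertain.

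**Figure D1:**
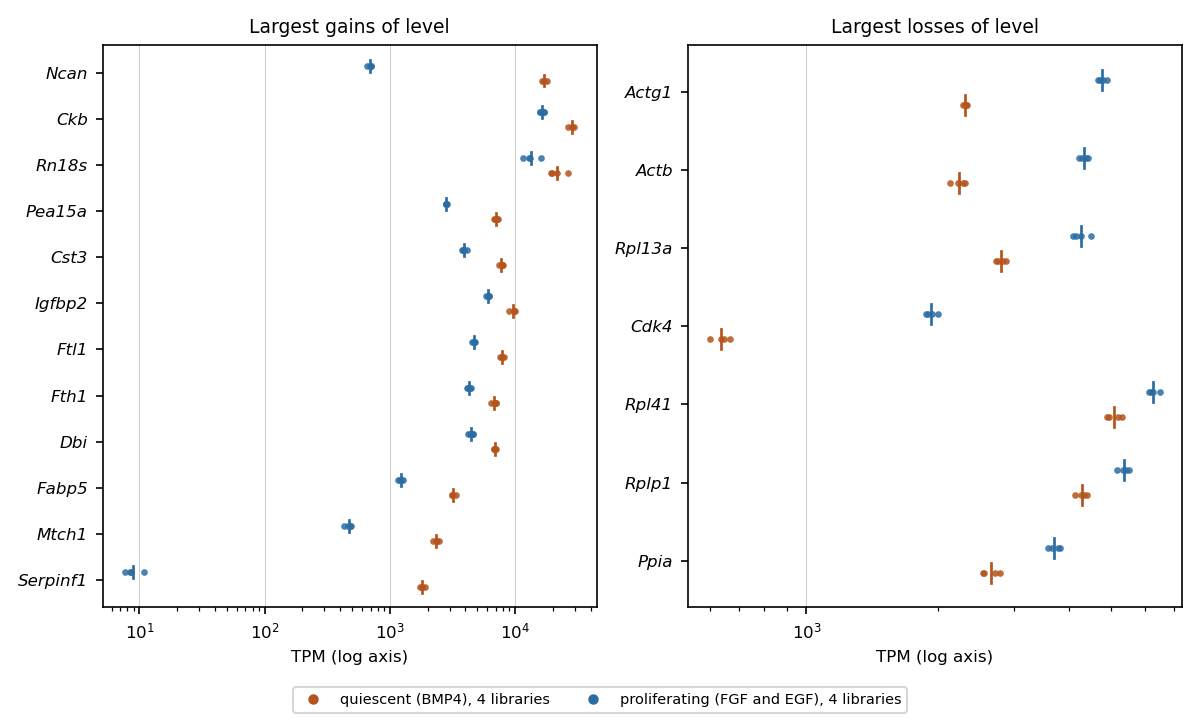
TPM of named genes among those with the largest gain and loss of TPM, on a logarithmic axis, with 1 point per library for quiescent and proliferating cells and a bar at the mean. Ncan gained the most TPM, from 694 to 17100 TPM, while the actins Actg1 and Actb lead the losses shown.

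Some genes had counts in 1 state alone. In 12 tested genes no proliferating library had a count, and in 3 no quiescent library had one. The gap junction gene Gja3 had 186, 275, 133 and 231 counts in the quiescent libraries, which is at least 325-fold above a floor of 3 counts over the proliferating group. Bgn (biglycan), a small matrix proteoglycan, had 53, 55, 38 and 48 counts (at least 76.5-fold higher), and Vill, a villin-like actin binding protein, had 20, 22, 20 and 31 (at least 36.7-fold higher). The secretin gene Sct, the forkhead factor Foxq1, the calcium-activated chloride channel Ano2 and the potassium channel Kcnj6 had 10 to 22 counts per quiescent library. In the other direction, the immediate early factor Egr3 had 165, 168, 159 and 160 counts in the proliferating libraries and 0 in the quiescent ones (at least 184-fold lower). Tmem255b and the cardiac actin Actc1 had 11 to 25 counts per proliferating library. The bounds allow for counting error alone, because reads without molecular identifiers are not independent molecules.

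Among ligands, more genes rose than fell. Of 23 tested genes of growth factors and cytokines, 12 rose and 4 fell (median 0.55), and their summed level was 0.152 to 0.177% of TPM in quiescent libraries and 0.106 to 0.111% in proliferating libraries. Tgfa, a ligand of the EGF receptor, stood at 67.6, 64.5, 68.2 and 66.7 CPM (counts scaled to library size after TMM) in quiescent libraries and at 8.33, 9.49, 10.7 and 13.3 CPM in proliferating ones (log2 fold change 2.67, SE 0.11, adjusted p = 3.75e-12). The groups did not overlap, and every quiescent library was well above the highest proliferating one. Fgf1 rose to 119 ± 6.46 from 32.1 ± 0.95 CPM, Pdgfc to 17.4 ± 0.981 from 5.59 ± 1.17 CPM, and the chemokine Cxcl12 to 11.6 ± 1.13 from 3.43 ± 0.722 CPM.

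Receptor genes were re-sorted and did not move one way. Of 26 receptor tyrosine kinase and neurotrophin receptor genes tested, 13 rose and 6 fell (median 0.19). Egfr, the receptor of the EGF in the proliferation medium, fell from 96.6, 82.8, 92.4 and 85.5 CPM to 26.2, 28.5, 21.2 and 28.5 CPM (log2 fold change -1.77, SE 0.09, adjusted p = 5.00e-11). The neurotrophin receptor gene Ngfr (p75) was low in proliferating libraries, at 6.64, 2.87, 4.23 and 3.67 CPM, and stood at 179, 161, 181 and 178 CPM in quiescent ones (log2 fold change 5.31, SE 0.15, adjusted p = 1.12e-10). Kit, the receptor of stem cell factor, rose from 12.2, 12.2, 10.6 and 9.18 CPM to 148, 159, 145 and 168 CPM (log2 fold change 3.80, SE 0.09, adjusted p = 4.53e-15). Neither Ngfr nor Kit had overlapping groups. At lower levels, Fgfr4 (log2 fold change 3.75, 2.97 with TPM-scaled counts), the GDNF receptor subunit Ret (2.35) and the VEGF receptor Kdr (2.29) rose as well. Of 16 ephrin and Eph receptor genes, which carry contact signals between cells, 7 rose and 5 fell (median 0.26). Their leading members were Efnb2, at 22.6, 31.1, 29.3 and 27.1 CPM against 4.64, 4.42, 6.51 and 4.71 CPM (log2 fold change 2.44, SE 0.15, adjusted p = 6.61e-10), Efna5 (2.26) and Epha5 (1.51).

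The TGF-beta and activin branch, which shares SMAD4 with BMP signalling, had members that moved in both directions. Of its 22 tested genes 10 rose and 7 fell (median 0.12). Inhbb, which encodes the beta B subunit of activin, fell from 59.8, 71.3, 68.3 and 69.5 CPM to 7.27, 8.64, 8.95 and 6.56 CPM (log2 fold change -3.09, SE 0.10, adjusted p = 3.73e-13), and the SMAD corepressor Tgif2 fell from 168 ± 6.36 to 49.8 ± 2.56 CPM. A different SMAD corepressor, Ski, rose from 261, 274, 279.5 and 275 CPM to 728, 669.5, 762 and 741 CPM (log2 fold change 1.41, SE 0.05, adjusted p = 3.45e-13), and the groups did not overlap. Its relative Skil stood at 11, 27.9, 13.8 and 12.6 CPM in quiescent libraries, highest in replicate 2, against 6.01, 2.21, 5.32 and 3.1 CPM, and its call was lost with the replicate number as a block (adjusted p = 0.0882).

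Hedgehog signalling acts through the Gli transcription factors and is a known mitogen of adult neural stem cells. Of its 13 tested genes 5 rose and 7 fell (median -0.24). Gli3, whose protein is processed mostly to a repressor, rose from 8.12, 8.17, 8.03 and 8.95 CPM to 23.1, 37.2, 27.3 and 31.8 CPM (log2 fold change 1.85, SE 0.14, adjusted p = 1.02e-08), while Gli2, mainly an activator, fell from 29.8 ± 2.45 to 15.4 ± 2.07 CPM. The coreceptor genes went opposite ways too, with Boc at 25.1 ± 2.19 and 87.7 ± 2.76 CPM and Gas1 at 118 ± 3.03 and 40.8 ± 3.74 CPM in proliferating and quiescent libraries (log2 fold changes 1.81 and -1.53). In the Hippo pathway, 6 of 20 tested genes rose and 6 fell (median 0.04). Wwtr1, which encodes the coactivator TAZ, rose from 65.9 ± 4.9 to 177 ± 24.8 CPM, whereas Tead2, a DNA-binding partner of YAP and TAZ, fell from 255, 270.1, 277 and 252 CPM to 63.2, 56.6, 62.8 and 62.7 CPM (log2 fold change -2.11, SE 0.05, adjusted p = 2.25e-14).

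Genes around G proteins changed strongly at single loci. Regulators of G protein signalling (RGS) speed up the GTPase of G alpha subunits, and of 11 tested 3 rose and 6 fell (median -0.48). Rgs16 fell from 115, 129.6, 112 and 124 CPM to 4.53, 3.5, 4.56 and 5.44 CPM (log2 fold change -4.74, SE 0.10, adjusted p = 2.95e-15), and Rgs8 from 15.1, 17.9, 15.5 and 15.2 CPM to 0.162, 0.234, 0.326 and 0.14 CPM (log2 fold change -6.12, -4.92 with TPM-scaled counts). Rgs2 and Rgs6 rose, to 45.1 ± 6.4 from 8.67 ± 1.9 CPM and to 14.6 ± 2.33 from 2.03 ± 0.308 CPM. Of 17 adhesion GPCR genes 8 rose and 5 fell (median -0.04). Adgrd1 fell from 12.7 ± 0.88 to 0.389 ± 0.428 CPM (log2 fold change -5.08, -5.95 without quiescent replicate 3), and the abundant Adgrg1 (GPR56) rose from 1488 ± 54 to 2335 ± 132 CPM. Among 25 other GPCR genes 10 rose and 7 fell (median 0.20). The adenosine receptor Adora1 fell from 211, 220.2, 226 and 227 CPM to 75.7, 64.6, 71.8 and 68.4 CPM (log2 fold change -1.66, SE 0.06, adjusted p = 4.08e-13), and the oligodendrocyte precursor receptor Gpr17 from 6.04 ± 0.401 to 0.517 ± 0.243 CPM. The endothelin receptor Ednrb rose from 96.1, 69.8, 69.3 and 66.7 CPM to 179.9, 306, 197 and 198 CPM, with no overlap although replicate 2 was the highest quiescent library.

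**Figure D2:**
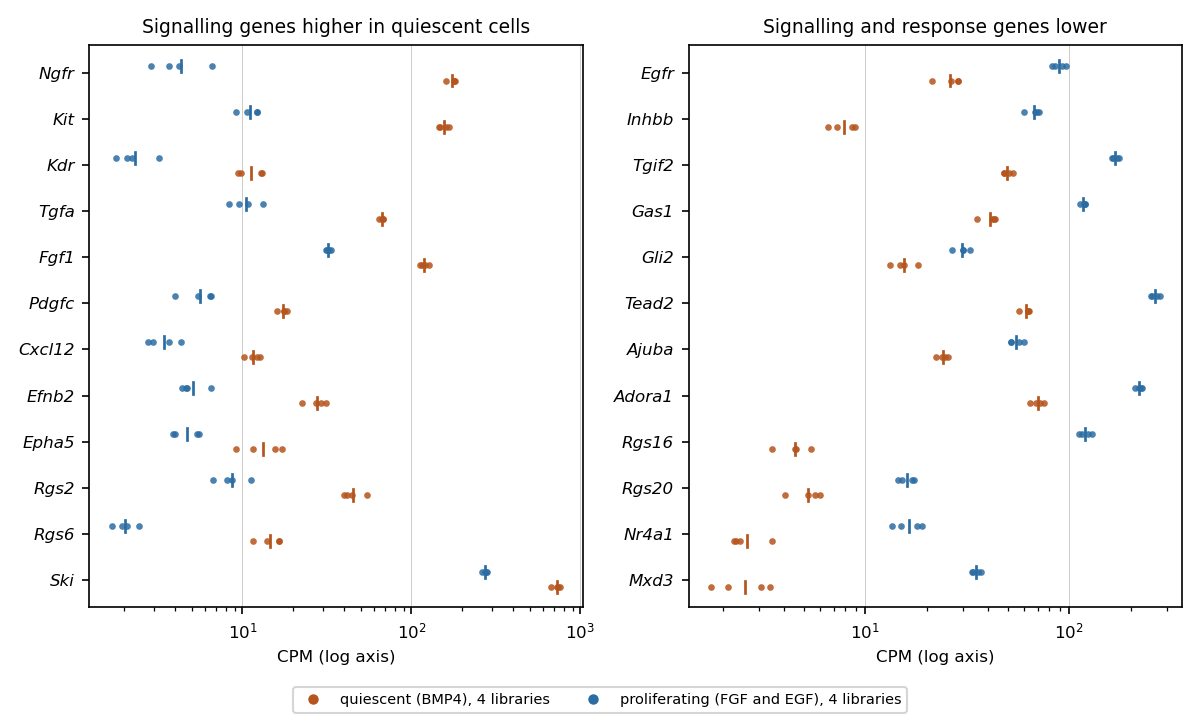
CPM of ligand, receptor and pathway genes in each library, on a logarithmic axis, with 1 point per library for quiescent and proliferating cells and a bar at the mean. Ngfr and Kit were at 174.9 and 154.9 CPM on average in quiescent cells, whereas Rgs16, Inhbb and Egfr were higher in proliferating cells.

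Genes of glutamate signalling and ion transport held several strong gains. Of 35 tested genes of glutamate and GABA receptors, transporters and enzymes, 17 rose and 8 fell, 13 and 5 of them at least 2-fold (median 0.55). Grin3a, an NMDA receptor subunit that lowers calcium permeability, stood at 190.3, 286, 239 and 233 CPM in quiescent and 17, 11.5, 11.5 and 11.9 CPM in proliferating libraries (log2 fold change 4.19, SE 0.17, adjusted p = 1.14e-07). All quiescent libraries were far above the proliferating ones. The NMDA receptor subunit gene Grin2a went the other way, from 3.4 ± 1.22 to 0.495 ± 0.384 CPM, while the kainate receptor Grik2 and the glutamate transporter Slc1a1 rose by 2.20 and 2.03 on the log2 scale.

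Genes of water, chloride and pH balance took more of the pool in quiescent cells. Of 21 tested, 10 rose and 4 fell (median 0.15), with 0.338 to 0.349% of TPM in quiescent libraries and 0.213 to 0.214% in proliferating libraries. The water channel Aqp4 had 5.82, 12.6, 4.88 and 8.09 CPM in quiescent and 0.422, 0.442, 0.217 and 0 CPM in proliferating libraries, so it was low in both groups (log2 fold change 4.78, 3.15 with TPM-scaled counts). The potassium-chloride cotransporter Slc12a5 rose from 13.4 ± 2 to 49 ± 2.39 CPM. Of 15 calcium and sodium channel genes 6 rose and 5 fell (median 0.03), led by the channel subunit Cacna2d2 (2.01).

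Matrix and membrane genes changed in part. Of 35 tested genes of glycosaminoglycan synthesis, which builds the sugar chains that Ncan and Bgn carry, 14 rose and 9 fell (median 0.18). The heparan sulfatase Sulf1 fell from 13.4 ± 1.97 to 2.28 ± 0.37 CPM and the chondroitin synthase Chsy1 from 166 ± 14.9 to 75.8 ± 4.12 CPM, while Papss2, which makes the sulfate donor, rose from 0.19 ± 0.101 to 1.45 ± 0.184 CPM. Of 17 annexin, S100 and caveola genes 11 rose and 4 fell (median 0.69), led by S100b, a calcium-binding astrocyte protein, at 141, 132, 145 and 133 CPM against 21.9, 24.6, 25.8 and 22.5 CPM (log2 fold change 2.54, SE 0.07, adjusted p = 2.51e-14). In the complement list 6 of 11 genes rose and 1 fell (median 0.46), none by 2-fold. Among 17 surface proteins used to sort neural stem cells, 11 rose and 6 fell (median 0.42). Cd9 rose from 94.1, 104, 99.8 and 105 CPM to 403, 382, 411 and 418 CPM (adjusted p = 1.28e-14) and the laminin receptor subunit Itga6 from 40 ± 3.86 to 106 ± 23.2 CPM, while Cd24a, a marker of activated progenitors and neuroblasts, fell from 58.5 ± 4.38 to 18.3 ± 0.896 CPM.

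The cytoskeleton lists fell as a share of the pool. The actin list, 34 genes tested, had 9 higher and 19 lower (median -0.26) and held 1.28 to 1.31% of TPM in quiescent libraries and 1.85 to 1.89% in proliferating libraries. Apart from the actins themselves, the actin-binding genes Tagln2 (-2.65), Cnn2 (-1.59) and Zyx (-1.21) fell, and Tagln (1.56) rose at low level. The tubulin and microtubule list, 29 tested, had 7 higher and 13 lower (median -0.07) and held 0.686 to 0.721% of TPM in quiescent libraries and 1.02 to 1.08% in proliferating libraries. Tubb5, a major beta tubulin of dividing cells, fell from 1925, 2031, 1989 and 1966 CPM to 626, 558, 587 and 603 CPM (log2 fold change -1.74, SE 0.04, adjusted p = 1.20e-14), and the tubulin-sequestering gene Stmn1 fell from 188 ± 9.32 to 42.3 ± 2.5 CPM. Tuba4a and the collapsin response gene Dpysl3 rose, by 1.79 and 1.64 on the log2 scale.

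The primary cilium is built mainly by cells outside the cycle, and its assembly genes did not rise as a list. Of 48 tested, 9 rose and 19 fell (median -0.07), and their summed level was 0.0999 to 0.108% of TPM in quiescent libraries and 0.113 to 0.117% in proliferating libraries. The transition zone gene Nphp4 fell from 38.9 ± 2.17 to 12 ± 1.13 CPM, Tmem107 from 9.64 ± 0.984 to 3.91 ± 0.665 CPM and the transcription factor Rfx1 from 34.9 ± 2.92 to 11.1 ± 1.29 CPM. Ttbk2, a kinase that starts ciliogenesis, was the 1 member that rose at least 2-fold, to 5.13 ± 1.51 from 2.37 ± 0.895 CPM. The median of this list changed sign without quiescent replicate 1 (0.02) or 3 (0.09).

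Transcription factor families held large single changes. Of 27 tested bHLH genes 12 rose and 11 fell, 8 and 3 of them at least 2-fold (median -0.10, 0.03 without quiescent replicate 2). The genes Id1, Id2 and Id4, which encode inhibitors of bHLH factors and are direct BMP targets, all rose. Id1 stood at 392, 330.4, 377 and 365 CPM in quiescent and 31, 39.1, 35.5 and 35.9 CPM in proliferating libraries. Id2 stood at 420.3, 427, 409 and 419 CPM and 45.8, 51.8, 51.1 and 57.2 CPM, and Id4 at 26, 31.3, 29.3 and 28.3 CPM and 3.06, 2.65, 2.39 and 3.67 CPM. In none of the 3 did the groups overlap. Hey1, a Notch and BMP responsive repressor, rose from 55.8 ± 1.37 to 306 ± 13.8 CPM, and Mxd3, a MAX partner that is active in dividing cells, fell from 37.1, 33.9, 35.9 and 33.4 CPM to 3.4, 1.75, 2.12 and 3.07 CPM (log2 fold change -3.78, SE 0.16, adjusted p = 5.12e-12).

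Of 33 homeobox and POU genes 10 rose and 10 fell (median 0.09, but -0.04 with library size alone). Msx1, a BMP target, rose from 13.4, 10.3, 13 and 13.5 CPM to 73.1, 59.2, 64.9 and 59.2 CPM (log2 fold change 2.35, SE 0.10, adjusted p = 8.77e-12), Dlx2 from 1.49 ± 0.299 to 8.15 ± 1.27 CPM, and Cux1 and Cux2 by 1.45 and 1.42 on the log2 scale. Of 26 nuclear receptor and retinoid genes 12 rose and 5 fell (median 0.30). Rxrg, a retinoid X receptor, was at 0, 0.331, 0.108 and 0.344 CPM in proliferating libraries and at 6.3, 5.14, 5.7 and 7.67 CPM in quiescent ones. The vitamin D receptor Vdr (3.29) and the glucocorticoid receptor Nr3c1 (1.93) rose, and the immediate early receptor Nr4a1 fell from 16.4 ± 2.5 to 2.63 ± 0.576 CPM. In the circadian clock list 11 of 22 genes rose and 3 fell (median 0.24). Its close relatives Bhlhe41 and Bhlhe40, both repressors in the clock, moved apart, Bhlhe41 from 16 ± 2.29 to 62.5 ± 2.16 CPM and Bhlhe40 from 91.7 ± 4.38 to 47 ± 2.61 CPM.

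Transcripts of most genes of the switch that controls cell cycle transcription fell, and the activity of the switch was not measured. RB family proteins hold E2F factors in check, and the DREAM complex represses genes of division through CHR elements in their promoters. Of 20 tested genes of this list 3 rose and 13 fell, 8 of them at least 2-fold (median -0.66). E2f2 fell from 22.4, 20.4, 23.9 and 22.4 CPM to 0.97, 2.92, 2.77 and 1.12 CPM (log2 fold change -3.48, SE 0.23, adjusted p = 7.18e-09). E2f7 and E2f8, which repress other E2F targets, fell from 19.4 ± 1.83 and 29.3 ± 2.98 CPM to 1.85 ± 0.593 and 4.03 ± 0.68 CPM. Mybl2 and Foxm1, the activators of late cycle genes, fell from 60.3 ± 2.96 and 151 ± 5.42 CPM to 6.07 ± 0.946 and 32.2 ± 1.8 CPM. For each of these 5 genes the groups did not overlap.

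The ubiquitin ligases APC/C and SCF, which time the cycle by destroying its proteins, had 20 of 29 genes lower and 3 higher (median -0.37). Ccnf, a cyclin that is itself an SCF subunit, fell from 103, 106, 99.5 and 99.7 CPM to 14.2, 13.2, 16.9 and 13.9 CPM (log2 fold change -2.81, SE 0.08, adjusted p = 3.81e-14). The APC/C coactivator Cdc20 and its E2 enzyme Ube2c fell by 2.32 and 2.42 on the log2 scale. The list members Cks2 and Cks1b fell from 38 ± 4.43 and 70.8 ± 1.91 CPM to 9.27 ± 1.06 and 17.7 ± 1.36 CPM. Fbxw7, the SCF subunit that targets cyclin E and MYC, was an exception and rose from 2.64, 1.66, 2.17 and 1.38 CPM to 5.17, 9.69, 4.88 and 6.14 CPM (log2 fold change 1.73, SE 0.29, adjusted p = 6.79e-05).

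Promoter stretches of a few genes of the cell cycle, bHLH and TGF-beta lists are shown, since the share of promoters with E2F and CHR letters differed between falling and rising genes. In the RB and E2F, APC/C and SCF, bHLH and TGF-beta lists, 2, 2, 8 and 6 genes were at least 2-fold higher. In the same order, 8, 7, 3 and 5 were at least 2-fold lower. Each stretch is from RefSeq annotation on GRCm38.p6, upstream of the gene's start and on the gene's strand, with the motif in capitals on the strand printed. E2f2 (chr4:136180731-136180776, plus strand), E2f8 (chr7:48881597-48881636, minus strand) and Ccnf (chr17:24251410-24251559, minus strand) held CHR letters and E2f7 (chr10:110745221-110745268, plus strand) held E2F letters, and they are the 4 with the largest falls among 10 genes of these lists that were at least 2-fold lower and held either motif.
E2f2: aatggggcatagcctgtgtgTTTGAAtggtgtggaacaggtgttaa
E2f7: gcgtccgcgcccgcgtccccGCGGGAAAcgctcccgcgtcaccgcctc
E2f8: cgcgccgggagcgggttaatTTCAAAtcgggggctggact
Ccnf: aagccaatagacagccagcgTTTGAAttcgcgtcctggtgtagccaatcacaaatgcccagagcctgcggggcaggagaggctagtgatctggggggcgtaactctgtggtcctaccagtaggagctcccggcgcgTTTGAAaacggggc
Of 4 genes of these lists that were at least 2-fold higher and held a SMAD-type motif, the 3 with the largest rise are shown. The letters GGCGCC were in 22.4% of the windows of all tested genes, so such a match is not particular to rising genes. Id4 (chr13:48260948-48260993, plus strand), Id2 (chr12:25096298-25096342, minus strand) and Fbxw7 (chr3:84815358-84815403, plus strand) held the SMAD-type letters GGCGCC.
Id4: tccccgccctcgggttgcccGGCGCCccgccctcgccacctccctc
Id2: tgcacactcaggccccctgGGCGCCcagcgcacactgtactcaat
Fbxw7: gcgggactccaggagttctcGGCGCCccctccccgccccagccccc

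Motifs were counted on both strands in windows of 300 bases, 250 before and 50 after each annotated start, over 12208 windows of 9500 tested genes. The E2F letters (TTTGGCGC, TTTCCCGC or TTTCGCGC) were in 3.43% of all these windows, in 7.59% of the 1239 windows of genes at least 2-fold lower and in 1.33% of the 1280 windows of genes at least 2-fold higher. In the 84 windows of genes at least 8-fold lower the share was 13.1%, which is 11 windows. The CHR letters (TTTGAA) were in 11.3% of all windows, 15.9% of those of falling genes and 10.5% of those of rising genes, and CCAAT in 37.8%, 42.1% and 34.5%. At least 8-fold lower genes held CHR letters in 9.52% and CCAAT in 54.8% of windows.

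The SMAD-type letters GGCGCC were in 22.4% of all windows, 23.6% of those of genes at least 2-fold higher and 23.4% of those of genes at least 2-fold lower. In the genes at least 8-fold higher and lower the shares were 19.7% and 13.1%, which are 27 and 11 windows. The cyclic AMP element TGACGTCA (3.08%, 2.42% and 3.23% in the same order) and the E-box CACGTG (10.1%, 8.67% and 11%) differed little, and GTCACGTG, which contains that E-box, stood at 4.16%, 3.44% and 2.82%. The CArG box of serum response factor was in 1.25%, 1.25% and 1.94%, and in 5 of the 84 windows of the genes at least 8-fold lower. Median GC content was 61.7% in the windows of all tested genes and of genes at least 2-fold higher, and 60.7% in those at least 2-fold lower. A match is a description of letters in the window and not a binding site.

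**Figure D3:**
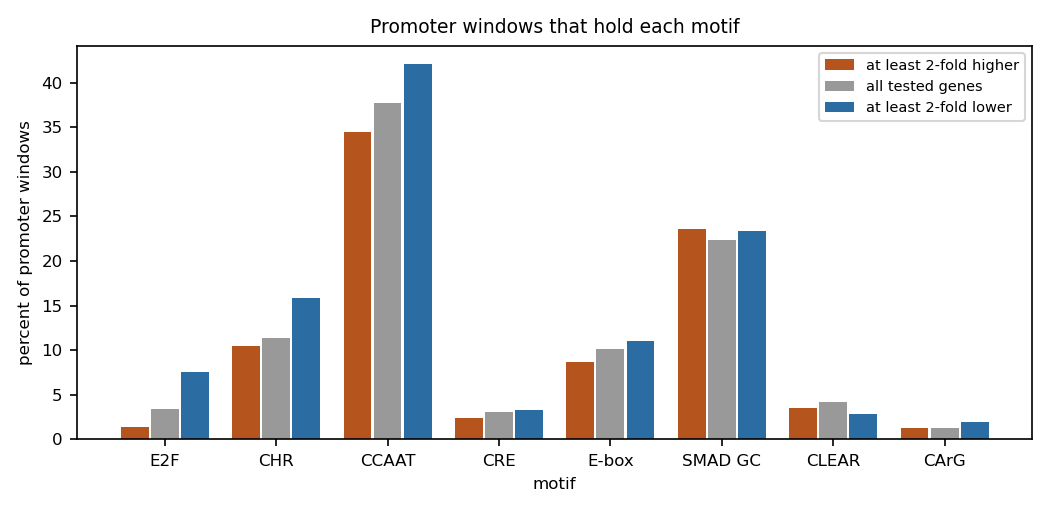
Percent of promoter windows that hold each motif, as bars from 0, for genes at least 2-fold higher, all tested genes and genes at least 2-fold lower in quiescent cells. The E2F bars stand at 1.33%, 3.43% and 7.59%, while the SMAD bars stand at 23.6%, 22.4% and 23.4%.

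Chromatin genes fell more often than they rose, as did all tested genes (35.5% lower and 29.9% higher). The Polycomb, SWI/SNF and histone enzyme lists had 38.7%, 55.6% and 45.9% lower and 16.1%, 18.5% and 13.1% higher. The Polycomb share of lower genes was thus near that of all genes. Of 31 Polycomb genes, whose complexes silence developmental genes, 5 rose and 12 fell (median -0.21). Cbx2 fell from 31.8, 29.1, 30.6 and 31.9 CPM to 5.98, 5.49, 3.91 and 6 CPM (log2 fold change -2.52, SE 0.13, adjusted p = 6.31e-11), the PRC2 partner Phf19 from 32 ± 1.36 to 9.21 ± 2.34 CPM and the methyltransferase Ezh2 from 14.9 ± 2.23 to 7.47 ± 2.37 CPM. Of 27 SWI/SNF genes 5 rose and 15 fell (median -0.23). Smarca2, which encodes the ATPase BRM, rose from 26.3, 19.5, 19.3 and 17.3 CPM to 48, 92.3, 64.1 and 71 CPM (log2 fold change 1.75, SE 0.22, adjusted p = 0.00023), a value of 1.10 with TPM-scaled counts, and Smarcd1 fell by 1.07 on the log2 scale. Of 61 histone acetylation and methylation enzymes 8 rose and 28 fell (median -0.14). Suv39h1, a heterochromatin methyltransferase, and the acetyltransferase Kat2a fell by 1.49 and 1.21, and Hdac9 rose by 2.32 at low level.

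The machinery that makes and handles RNA was lower in most of its lists. Of 33 tested subunits and factors of RNA polymerases I and III, which make ribosomal and transfer RNA, 24 fell and 2 rose (median -0.53). The polymerase I subunits Polr1a and Polr1b fell from 105 ± 5.31 and 49.6 ± 2.03 CPM to 38.9 ± 2.72 and 14.2 ± 0.727 CPM. Polymerase III has a pair of alternative subunits, and they moved apart. Polr3gl rose from 13.3, 12.6, 10.6 and 10.8 CPM to 34.1, 32.7, 34 and 36.1 CPM (log2 fold change 1.53, SE 0.10, adjusted p = 1.63e-09), and Polr3g fell from 2.21, 1.55, 2.28 and 1.61 CPM to 0.323, 1.52, 0.814 and 0.14 CPM (log2 fold change -1.36, SE 0.47, adjusted p = 0.0191). The Polr3g call was lost without proliferating replicate 4 (adjusted p = 0.0506) or quiescent replicate 4 (0.064) and with the replicate block (0.0872), and its log2 fold change was -2.09 without quiescent replicate 2.

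Of 43 polymerase II and Mediator genes 28 fell and 1, the Mediator kinase Cdk19, rose (median -0.39; log2 fold change 0.89). Med18 was the 1 gene of the list that changed at least 2-fold (-1.03). In the RNA decay list 25 of 41 fell and 3 rose (median -0.41), led by the exosome subunits Exosc8 (-1.77) and Exosc2 (-1.54). Of 15 genes of m6A RNA methylation 6 fell and 3 rose (median -0.08), with the methyltransferase Mettl3 at -1.05, and of 13 miRNA pathway genes 5 fell and 3 rose (median -0.16), with Dgcr8 at -0.82 and Ago4 at 1.20. The lowest median among the pathway lists belonged to the host genes of small nucleolar RNAs and nuclear lncRNAs, of which 16 of 19 fell (median -0.82). Snhg17, Snhg12 and Snhg1 fell from 35.8 ± 1.79, 24.4 ± 2.95 and 32.9 ± 4.85 CPM to 10 ± 1.38, 7.17 ± 1.25 and 10.4 ± 2.55 CPM. Miat was the 1 that rose, from 18.9, 16.9, 18 and 15.3 CPM to 50.6, 60.7, 57.6 and 56.7 CPM (log2 fold change 1.71, SE 0.09, adjusted p = 6.43e-11).

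Imprinted genes are expressed from 1 parental copy, and many act on growth. Of 18 tested 10 rose and 3 fell (median 0.33). Nnat (neuronatin) rose from 253, 255, 265 and 270.3 CPM to 611, 499.7, 574 and 600 CPM (log2 fold change 1.13, SE 0.06, adjusted p = 7.96e-11), and Impact, a regulator of translation, from 11.5 ± 2.17 to 25.4 ± 4.88 CPM. Mest fell from 803, 849, 774 and 887 CPM to 368, 395, 371 and 389 CPM (log2 fold change -1.12, SE 0.05, adjusted p = 7.83e-12), and the retrotransposon-derived Peg10 from 150.2 ± 5.21 to 59.6 ± 10.3 CPM.

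**Figure D4:**
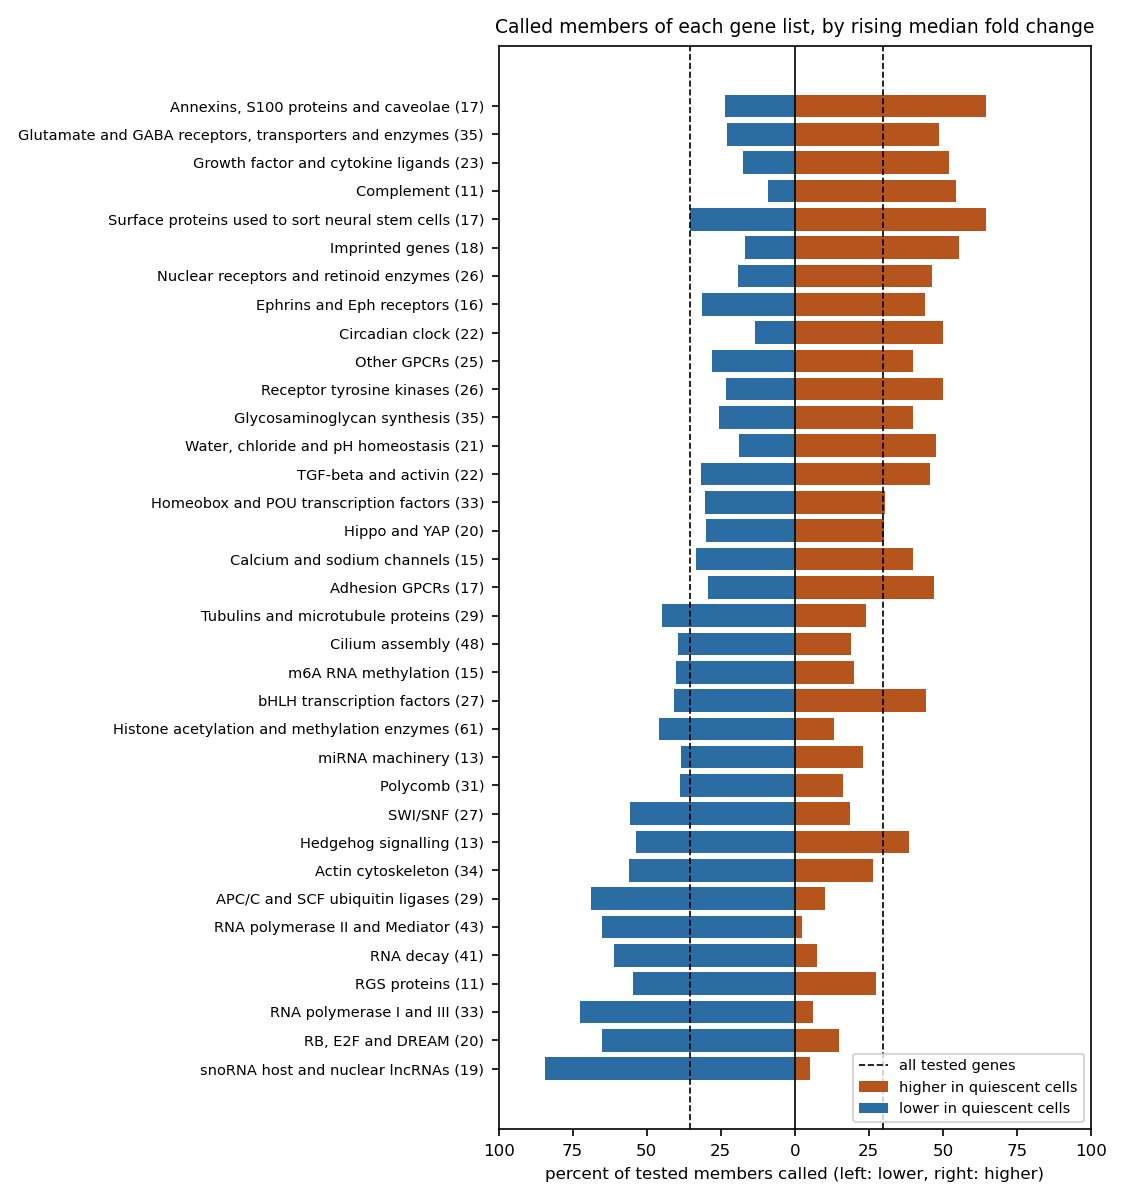
Percent of the tested members of each gene list called higher (bars to the right of 0) and lower (bars to the left of 0) in quiescent cells, with the number tested in brackets, lists in the order of their median log2 fold change and dashed lines at the shares of all tested genes, 29.9% and 35.5%. The annexin and S100 list stands at the top, with 11 of 17 genes higher, and the host genes of small nucleolar RNAs at the bottom, with 16 of 19 lower.

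Some genes changed the form of their transcript and not only its amount. Usage of transcripts within a gene, as shares of the gene's estimated transcript counts, was tested with edgeR's diffSpliceDGE and a Simes adjustment per gene. Of 5161 genes with at least 2 transcripts above 5% of their counts, 53 were called, or 1.03%, and in 8 of them a different transcript led in each state with a difference of at least 25 percentage points. Short reads assign such shares by model, and the transcripts of a gene are not independent. With limma's diffSplice 230 genes were called. Many of the 53 were not among them, while each gene whose transcripts are described below was. The 8 were 19 without quiescent replicate 2.

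Macroh2a1, the gene of the histone variant macroH2A1, exchanged 1 internal exon for another. Transcript H2afy-202 held 67.1, 68.9, 70.8 and 72.6% of the gene's counts in quiescent and 31.8, 26.5, 28.5 and 28.2% in proliferating libraries, and H2afy-201 held 19, 15.2, 13.4 and 11.9% and 48.8, 54, 55.5 and 58% (adjusted p = 2.523e-09). Every quiescent library had more H2afy-202 than H2afy-201, and every proliferating library had less. Both have 9 exons, and their coding bases differ in 1 mutually exclusive exon of the macro domain, of 91 bases (chr13:56088252-56088342) or 100 bases (chr13:56089758-56089857) on the minus strand of GRCm38, in GENCODE M21 annotation. The coding parts hold 369 and 372 codons, and the macro domain with the 91-base exon is the form known to bind ADP-ribose. The exons are printed in capitals with 12 bases of the neighbouring exons in lower case, since these are the letters that changed.
H2afy-202, higher in quiescent cells: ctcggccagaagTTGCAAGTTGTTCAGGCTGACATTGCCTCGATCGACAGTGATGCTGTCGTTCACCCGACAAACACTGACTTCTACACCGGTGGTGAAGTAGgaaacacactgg
H2afy-201, higher in proliferating cells: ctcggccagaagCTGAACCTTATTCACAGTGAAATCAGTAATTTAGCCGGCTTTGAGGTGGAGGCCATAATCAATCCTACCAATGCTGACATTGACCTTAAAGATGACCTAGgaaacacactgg

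Limk2, a kinase that inactivates the actin-severing protein cofilin, changed its start. Limk2-203 held 80.6, 76.6, 72.5 and 81.4% of counts in quiescent and 12.3, 20.7, 26.7 and 8.35% in proliferating libraries, and Limk2-201 17.2 ± 3.38% and 74.8 ± 10% (SD, n = 4 and 4; adjusted p = 7.694e-04). The annotated starts lie 37798 bases apart on chromosome 11, and the proteins begin differently. The coding bases found in 1 of the transcripts alone are printed with the start codon in capitals, 53 bases for Limk2-203 (chr11:3370969-3371021) and 116 for Limk2-201, joined across introns within chr11:3392917-3409061, both on the minus strand.
Limk2-203, higher in quiescent cells: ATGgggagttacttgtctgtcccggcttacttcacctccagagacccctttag
Limk2-201, higher in proliferating cells: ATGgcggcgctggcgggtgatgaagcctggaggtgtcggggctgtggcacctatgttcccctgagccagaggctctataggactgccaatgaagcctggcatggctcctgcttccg

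Tafa5, a secreted chemokine-like protein of the nervous system, changed its start as well. Fam19a5-201 held 67.5, 66.2, 70.8 and 69.1% of counts in quiescent and 31.2, 37.5, 35.8 and 30.3% in proliferating libraries, and Fam19a5-202 held the rest (adjusted p = 5.882e-06). The starts are 80931 bases apart on chromosome 15, and the first 91 coding bases of 1 form (chr15:87625396-87625486) and 112 of the other (chr15:87544492-87544603), on the plus strand, encode different N-termini. Capitals mark the start codon.
Fam19a5-201, higher in quiescent cells: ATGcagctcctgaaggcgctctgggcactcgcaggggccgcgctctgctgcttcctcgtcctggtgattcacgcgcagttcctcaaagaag
Fam19a5-202, higher in proliferating cells: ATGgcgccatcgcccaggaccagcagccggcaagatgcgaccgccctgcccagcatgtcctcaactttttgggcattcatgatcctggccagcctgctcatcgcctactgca

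Ddr1, a collagen receptor kinase, was at 1089.9 ± 86.4 CPM in quiescent and 1042 ± 33.2 CPM in proliferating libraries, and its gene-level difference did not pass the test (log2 fold change 0.06, adjusted p = 0.29). It passed under 4 alternatives, among them without quiescent replicate 2, at 0.20 to 0.23, and was -0.08 with library size alone. Its transcripts nevertheless traded places. Ddr1-212 held 64, 55.4, 58.6 and 61.3% of counts in quiescent and 32.2, 26.1, 29.4 and 28% in proliferating libraries, and Ddr1-201 19 ± 3.99% and 47.9 ± 4.18% (adjusted p = 6.054e-07). These transcripts hold the same 2733 coding bases and start 2095 bases apart.

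Phc2, a Polycomb gene, used its longer form more in quiescent cells. Phc2-201, with 2550 coding bases, held 38.4, 37.3, 28.9 and 35% of counts in quiescent and 10.5, 10.7, 10.2 and 12.3% in proliferating libraries, while the short Phc2-202, with 969 coding bases and a start 72883 bases further on, held 56.9 ± 3% and 83.3 ± 1.65% (adjusted p = 1.825e-07). The short form led in both states. Rgs3-204 held 57.7 ± 3.31% and 24 ± 3.64% of the counts of Rgs3, and a retained-intron form, Rgs3-214, was at 0 in every quiescent library and at 35.8, 10.6, 34.1 and 28.8% in the proliferating ones. A different retained-intron form of Rgs3 went the other way, at 27.6 ± 3.21% in quiescent and 4.73 ± 1.44% in proliferating libraries. Plekhg5-203, from a start 14360 bases upstream of that of Plekhg5-204, was at 0 in every quiescent library and at 21.9, 33, 32.8 and 29.4% in the proliferating ones.

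A few further changes were picked after their values were seen. Abl1-202, whose first coding exon carries the signal for myristoylation, held 79.3 ± 5.33% of counts in quiescent and 57.8 ± 2.5% in proliferating libraries. Map4-214, a shorter form of a microtubule-associated protein, held 15.2, 12.4, 12.4 and 12.9% and 29.8, 32.3, 33.8 and 31.9%. Myl6-201 of the myosin light chain gene held 4.84, 4.83, 5.32 and 4.91% and 14.3, 14.6, 14.6 and 13.7%. In none of the 3 did the groups overlap. With the replicate number as a block 18 genes changed their usage, and Limk2, Plekhg5 and Abl1 were not among them.

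**Figure D5:**
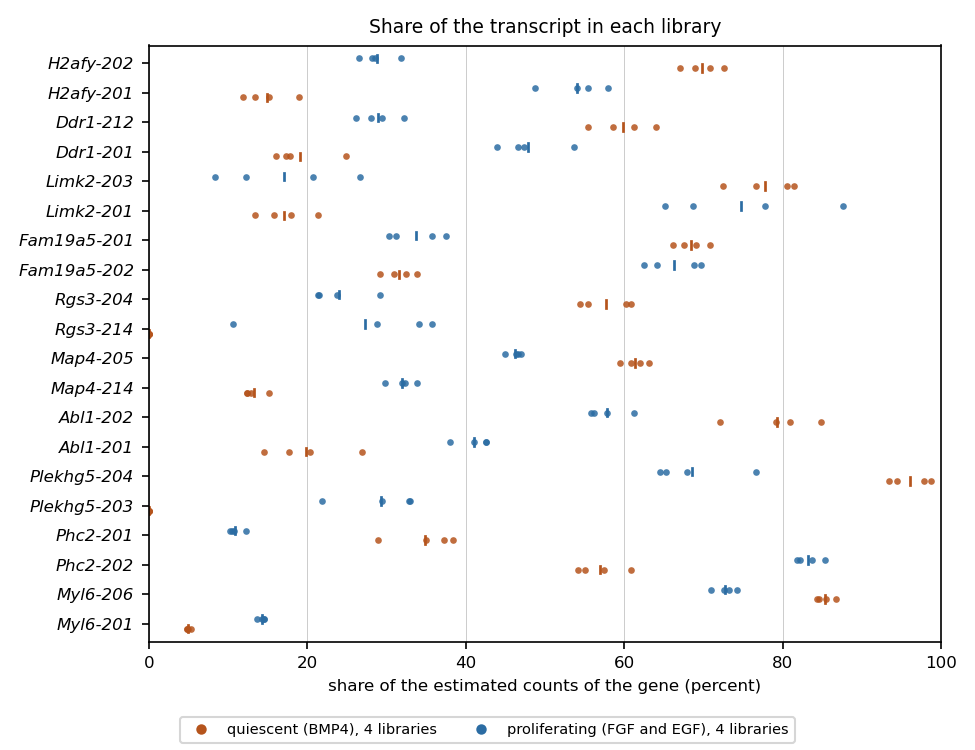
Share of the gene's counts held by the named transcripts, in percent from 0 to 100, with 1 point per library for quiescent and proliferating cells and a bar at the mean. H2afy-202 stood at 67.1 to 72.6% in quiescent and 26.5 to 31.8% in proliferating libraries.

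Spread between libraries was larger in the quiescent group. The median SD of log2 CPM was 0.152 in quiescent and 0.12 in proliferating libraries, and 7851 of the 12245 genes had the larger SD in quiescent ones. The quiescent libraries held 6475099 to 8797750 counts, against 8331999 to 8992709 in proliferating ones. Quiescent replicate 2 also led the second principal component. The part of depth and of this library in the spread was not tested. Among genes with a mean of at least 10 CPM in the group, predicted genes left out, Gemin4, a factor of the SMN complex, varied most in quiescent libraries, at 23.9, 8.64, 3.25 and 15.1 CPM against 42.5, 47.2, 48.9 and 32.9 CPM. By the same rule the proliferation marker Mki67 varied most in proliferating libraries, at 20.1, 5.3, 19.3 and 5.28 CPM against 4.36, 5.37, 1.63 and 3.07 CPM, and its fall by 1.77 on the log2 scale passed only narrowly (adjusted p = 0.042) and was lost under 10 of the alternatives, among them without proliferating replicate 1 or 4 or any 1 quiescent library (adjusted p = 0.076 to 0.121). Its groups overlapped. The chaperone Hsp90aa1 stood at 28.6, 51.7, 11.9 and 30.7 CPM and 33.1, 12, 34.2 and 11.7 CPM, so its groups overlapped too. The alternation of Mki67 and Hsp90aa1 in proliferating libraries was the same, high in replicates 1 and 4 and low in 2 and 5, and their transcripts have a GC content of 46.6% and 43.7%, whose part was not tested.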

How the data were processed

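Poly-A RNA was sequenced from stranded TruSeq libraries, per the labels' protocols. The authors deposited estimated counts per gene and per transcript, TPM and counts scaled from TPM, in tables whose names give salmon as the counter; its version is not given in the sources used here. The submitters' processing notes name GRCm39, R 4.0.3 and DESeq2 1.30.1. The authors' deposited table holds log2 fold changes, p-values and a mean signal of normalised counts per gene. Column names were matched to samples by the library identifiers of the labels.

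Here counts were rounded, and edgeR 4.0.16 under R 4.3.3 was used with TMM, filterByExpr and a robust quasi-likelihood fit without covariates, Benjamini-Hochberg over all tested genes, threshold 0.05. CPM uses the TMM-scaled library size, and SE is the absolute log2 fold change over the root of F. Group values are mean ± SD, n = 4. The tests were checked on simulated data. The gene test called 85.57% of genes changed 2-fold, 75.26% of those changed 1.5-fold and 0.06733% of unchanged ones. These shares are those of the simulated data, and the share of unchanged genes called in the libraries themselves was not tested. The transcript usage test called 50% of 116 genes whose 2 main transcripts, at least 2-fold apart, traded places. A gene without a call may thus still have changed its usage. Of unchanged genes this test called 0.114%. Transcripts were matched by identifier to GENCODE M21 on GRCm38, and promoters by symbol to RefSeq on GRCm38.p6, so no coordinate of the deposited build is mixed with these.

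The gene lists and members were chosen with earlier results of these data known. Named genes are the leaders by TPM, the largest gains and losses of TPM, genes without counts in one group, up to 5 members per list by fold change, the 12 largest changes of transcript share (at least 10 CPM in both groups), the most variable genes (mean at least 10 CPM), abundant transcription factors, and the promoters with the largest fold. Abl1, Map4 and Myl6 were added after their values were seen, and predicted genes are not named. A few genes that these rules pick are not reported here. The alternatives were library size alone, RLE size factors (another scaling of libraries), TPM-scaled counts, length-scaled counts, DESeq2 1.42.0 and limma 3.58.1 on log2(TPM + 1). Further ones were filters on low values, a replicate block, removal of the GC trend (chosen after seeing the data) and leaving out each library. For transcripts they were limma's diffSplice, a gene-level F test and other minimum shares.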

Additional observations from a re-analysis of the deposited data

Results flagged for a closer look

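In the 153 named genes, 306 groups of 4 libraries were examined for a library whose gap to its nearest neighbour took most of the range of its group. In 17 groups 1 library stood apart, and chance alone flags about 1 in 20 groups. Quiescent replicate 2 was that library 6 times. It was lowest for Fth1 (2780 CPM, against 3090 to 3140 in the others), Ngfr (161 against 178 to 181) and Tead2 (56.6 against 62.7 to 63.2). It was highest for Skil (27.9 CPM against 11 to 13.8), Ednrb (306 against 180 to 198) and Peg10 (75 against 53.7 to 55.8).

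Among other quiescent libraries, replicate 4 was highest for Nr4a1 (3.49 CPM against 2.26 to 2.44), replicate 1 lowest for Bhlhe41 (59.3 against 63.3 to 63.8) and replicate 3 highest for Phf19 (12.7 against 7.71 to 8.37). Among proliferating libraries, replicate 2 was lowest for Msx1 (10.3 CPM against 13 to 13.5) and highest for Rgs8 (17.9 against 15.1 to 15.5). Replicate 1 was lowest for Bhlhe40 (85.2 against 93.2 to 94.5) and highest for Ednrb (96.1 against 66.7 to 69.8) and Grin3a (17 against 11.5 to 11.9). Replicate 4 was highest for Efnb2 (6.51 against 4.42 to 4.71), and replicate 5 for Gli3 (8.95 against 8.03 to 8.17) and Suv39h1 (102 against 84 to 86.4). In each of these genes the called direction was the same without the library that stood apart.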

How the results depend on the processing

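Of 153 named genes 151 were called, and over 2739 pairs of a gene and an alternative 17 lost the call, in Apoe, Skil, Polr3g and Mki67, 4 gained it, all in Ddr1, and no called gene changed sign. These pairs include length-scaled counts, which gave the same 3664 and 4346 calls as the main fit and so could hardly differ from it. Ddr1, not called, changed sign with library size alone (-0.08). Changed transcript usage, 53 genes, stood at 230 with limma's diffSplice, 195 with the F test and 45 to 79 leaving out 1 library. Many of the 53 were not among the 230. Genes with a different leading transcript, 8, stood at 17 with diffSplice, 13 with the F test and 7 to 19 leaving out 1 library, the highest without quiescent replicate 2. The cause was not tested.

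The labels do not say whether the replicate numbers pair the samples. Deviations of same-numbered libraries from their group means correlated at -0.183, -0.33 and -0.00828. These correlations cannot settle the pairing, because trends of whole libraries, such as that with GC content, enter the same deviations. With these numbers as a replicate block, which uses fewer samples, 2859 genes were higher and 3694 lower, 18 changed transcript usage and 4 their leading transcript. Replicate 2 libraries did not correlate best with each other.

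In 188 of 630 pairs of a gene list and an alternative, the median of the list moved by at least its SD between libraries. In 8 further pairs it changed sign, counted only where the main median exceeded that SD. The median of the homeobox list changed sign with TPM-scaled counts (-0.0), library size alone (-0.04) and limma on log2(TPM + 1) (-0.02), and ran from -0.03 to 0.17 leaving out 1 library. That of the cilium list ran from -0.1 to 0.09, and that of the bHLH list from -0.13 to 0.03. As shares of counts in place of TPM, quiescent minus proliferating in percentage points, the summed level changed sign for the circadian clock (-0.00524), other GPCRs (-0.0147), receptor tyrosine kinases (-0.00465), glycosaminoglycan synthesis (-0.0107), imprinted genes (-0.00316) and bHLH factors (-0.0416). With the GC trend removed 4032 genes were higher and 4056 lower, and without quiescent replicate 2 4086 and 3916.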
